A study of Mus musculus with 8 samples.

Results

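Fibrillar collagen genes encode the chains of rope-like extracellular fibres, and 8 of them, Col11a1, Col11a2, Col5a1, Col5a2, Col5a3, Col2a1, Col24a1 and Col27a1, are described here in the CA1 region of the mouse hippocampus. They are the fibrillar chains outside types I and III, and they are 8 of 37315 genes in the deposited count files. Col11a1 was chosen by its measured difference between SIK3 guide and control guide mice, as 1 of 2 genes called there, so its values in that comparison are given as a description with no test. The other 7 chains were taken by gene family. They were used to ask whether the rise of Col11a1 was shared.

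Cas9 mice received a stereotaxic injection of an adeno-associated virus (AAV) with a guide RNA. The guide was directed at SIK3, a salt-inducible kinase, in 4 mice (genotype label KO), and 4 others had a control guide (genotype label Control). Each group had 2 males and 2 females, all 8 mice carried Cas9, and each mouse gave 1 mRNA library. Mouse numbers here follow listing order within a group and pair no animals. The sources used here do not state the strain, the age, the promoter of Cas9, the site of the guide in the gene or the time after injection. The guide acts only in cells that took up virus, while the RNA came from the whole dissected tissue.

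Collagen chains assemble in threes into a triple helix built on a repeated glycine-containing unit. Type V and type XI chains are the minor fibrillar collagens: they are laid down inside or on the surface of fibrils of the more abundant types, and they limit fibril diameter. The type XI molecule of cartilage joins the products of Col11a1, Col11a2 and Col2a1, and mixed molecules that combine type XI and type V chains are known from other tissues. Brain parenchyma holds little fibrillar collagen, most of which lies around vessels and in the meninges. SIK3 itself is known from cartilage, where it is needed for the maturation of chondrocytes.

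The 8 libraries held 13561662 to 18619928 counts, with 13561662 to 15165413 in males and 16743701 to 18619928 in females, so depth and sex went together. Sik3 was at 137 to 165 CPM (counts scaled to library size) in control mice and at 75.3 to 98.5 CPM in SIK3 guide mice, which matches the labels of all 8 libraries. Libraries differed in how log2 CPM depended on the GC content of a gene: per 10 percentage points of GC it ranged between -0.16 and 0.16, and each group held positive and negative slopes. It was -0.050 and -0.12 in the 2 control females and 0.029 and 0.16 in the 2 SIK3 guide females. In males it was 0.14 and -0.091 in controls and -0.16 and 0.089 with the SIK3 guide.

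Promoter windows of 6 of the 8 genes were found in RefSeq on GRCm38.p6, reaching from 250 bases before the start of the gene to 50 after it. Positions count from the RefSeq start, which equals the GENCODE start for Col11a1 and Col24a1 and lies at 34039138 for Col11a2, 299 bases before the GENCODE start. The first 260 bases are shown for the chain that rose, for its type XI partner chain and for the only window of the 6 with a full cAMP response element (CRE). The capitals mark CRE letters (TGACGTCA, or its core TGACG) and the CCAAT box (CCAAT), on either strand.
Col11a1, chr3:114030290-114030549, plus strand: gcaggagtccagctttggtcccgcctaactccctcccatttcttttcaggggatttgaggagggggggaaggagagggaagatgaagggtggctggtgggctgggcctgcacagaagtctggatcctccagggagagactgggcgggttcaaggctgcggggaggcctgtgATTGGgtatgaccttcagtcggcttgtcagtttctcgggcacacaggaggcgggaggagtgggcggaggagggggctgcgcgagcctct
Col11a2, chr17:34038888-34039147, plus strand: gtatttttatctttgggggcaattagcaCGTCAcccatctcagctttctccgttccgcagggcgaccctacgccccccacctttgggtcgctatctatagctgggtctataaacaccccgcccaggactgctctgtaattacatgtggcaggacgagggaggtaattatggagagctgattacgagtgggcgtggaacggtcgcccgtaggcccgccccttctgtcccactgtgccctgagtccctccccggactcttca
Col24a1, chr3:145292222-145292481, plus strand: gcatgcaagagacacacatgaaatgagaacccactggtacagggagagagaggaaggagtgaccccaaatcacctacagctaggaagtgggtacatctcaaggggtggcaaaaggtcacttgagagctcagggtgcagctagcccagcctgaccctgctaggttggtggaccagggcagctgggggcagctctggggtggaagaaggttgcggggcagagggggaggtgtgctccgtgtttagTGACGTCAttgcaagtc
The window of Col11a1 held 1 CCAAT box, read on the minus strand from 79 to 75 bases before the start, and 2 GC boxes (GGGCGG). It held no CRE, no CRE core, no SOX core (ACAATG), no TATA box (TATAAA) and no MEF2 consensus. Col11a2 had a CRE core from 222 to 218 bases before the start, a TATA box and 2 GC boxes. Col24a1 had the full CRE, which contains its core on both strands and ends on the first base of the gene. Of all 32851 windows of this length searched on both strands, 1.79% held the full CRE, 20.8% the CRE core, 37.4% the CCAAT box, 35.7% the GC box, 12.6% the SOX core, 13.6% the TATA box and 3.19% the MEF2 consensus. These matches describe letters and show no binding.

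Col11a1 encodes the alpha 1 chain of type XI collagen and lies on chromosome 3 from 114030540 to 114220718 (ENSMUSG00000027966, GRCm38, plus strand). In control mice 1 to 4 it was at 38.9, 46.4, 47.5 and 41.0 CPM, from 548 to 841 counts. In SIK3 guide mice 1 to 4 it was at 75.6, 66.2, 69.3 and 63.7 CPM, from 928 to 1285 counts. All 4 SIK3 guide mice were above every control, and the gap between the groups was wider than the spread within either of them. The means were 43.4 ± 4.14 CPM (SD, n = 4) and 68.7 ± 5.16 CPM (SD, n = 4), a ratio of 1.58 and a log2 fold change of 0.66 ± 0.08 (SE). Of 14788 genes tested with edgeR, 2 were called, which is 0.0135%, and 1 of these was higher, which is 0.00676%. Col11a1 is that gene because the call chose it, and nothing is read from the count. The other called gene was Sik3, the target of the guide, which was lower with a log2 fold change of -0.77 (edgeR, adjusted p = 0.0202). Groups that did not overlap were found in 1.74% of genes, with the SIK3 guide higher in 0.933%. The call was lost when control 2, control 3, control 4, SIK3 guide mouse 2 or SIK3 guide mouse 3 was left out, where the values were 0.71, 0.71, 0.64, 0.68 and 0.65. Further losses came with meningeal fibroblast markers as a covariate (0.66) and without both SIK3 guide females (0.72). No gene was called without control 2, without control 3 or in these further fits, so Sik3 lost its call there too.

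**Figure D1:**
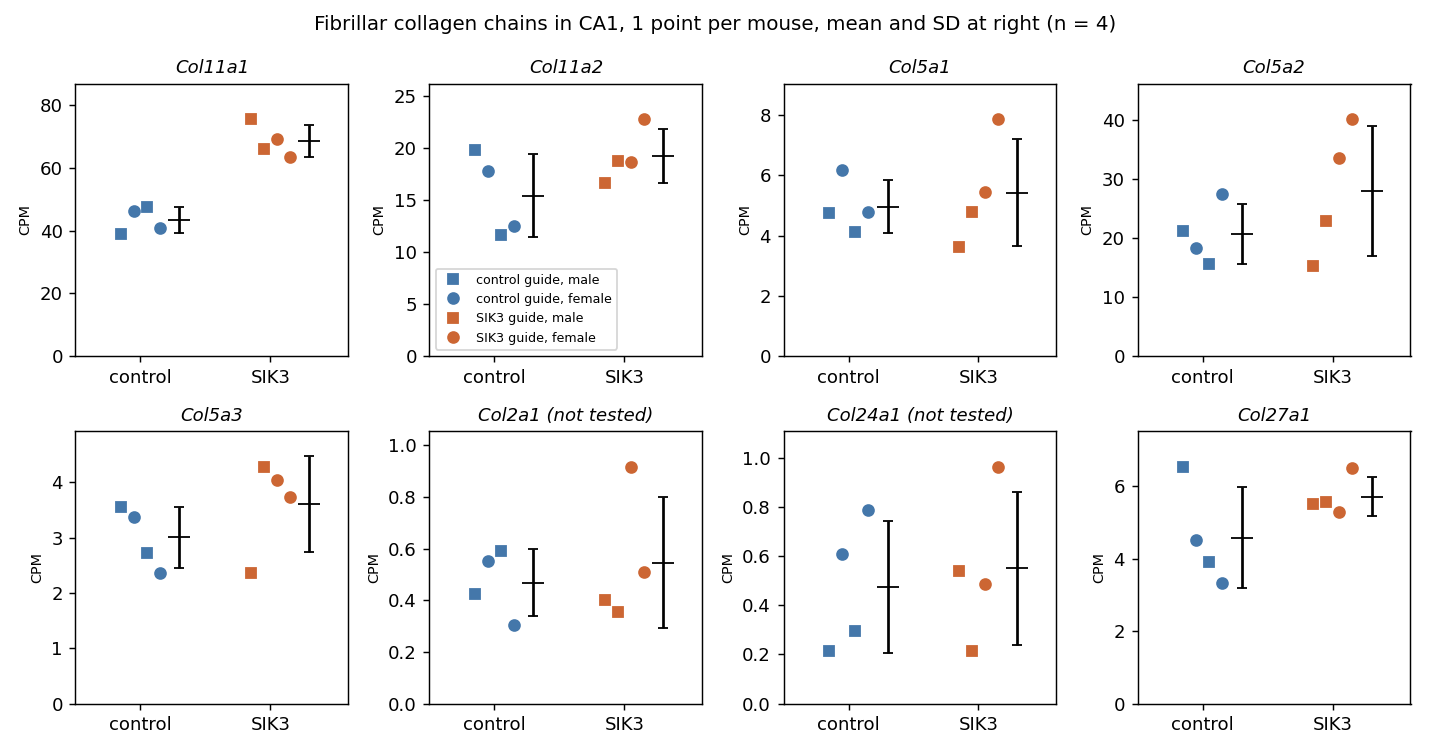
CPM of the 8 fibrillar collagen chains, 1 point per mouse (squares, males; circles, females; blue, control guide; orange, SIK3 guide), with mean and SD of 4 mice at the right of each group; each panel has its own axis from 0. In the Col11a1 panel the SIK3 guide mice lie between 63.7 and 75.6 CPM and the controls between 38.9 and 47.5 CPM, while the groups overlap in the other 7 panels.

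The other type XI gene, Col11a2, encodes the alpha 2 chain and lies on chromosome 17 from 34039437 to 34066685 (ENSMUSG00000024330, plus strand). It was at 19.8, 17.8, 11.6 and 12.5 CPM in control mice 1 to 4 and at 16.7, 18.8, 18.7 and 22.8 CPM in SIK3 guide mice 1 to 4. The groups overlapped, and only SIK3 guide mouse 4 exceeded the highest control. Its log2 fold change was 0.32 ± 0.16 (SE, 95% interval -0.037 to 0.67), which did not pass (edgeR, adjusted p = 0.9999). The upper end of that interval reached the 0.66 of Col11a1, so a rise of equal size is inside what these mice allow. The 0.66 comes from the comparison that chose Col11a1, so it may be too high. The log2 fold change of Col11a2 was 0.50 without control 1, 0.21 without control 3, 0.19 without control 4 and 0.17 without both SIK3 guide females.

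Among the type V genes, Col5a2, which encodes the alpha 2 chain, had the widest spread (chromosome 1, 45374321 to 45503282, minus strand). It was at 21.2, 18.3, 15.6 and 27.5 CPM in control mice 1 to 4 and at 15.3, 23.0, 33.7 and 40.2 CPM in SIK3 guide mice 1 to 4. The lowest of all 8 values, 15.3 CPM, and the highest, 40.2 CPM, were both in the SIK3 guide group, the first in a male and the second in a female. The log2 fold change was 0.40 ± 0.18 (SE, 95% interval 0.0072 to 0.79). It had an unadjusted p of 0.0465 and did not pass over all genes (edgeR, adjusted p = 0.9999). Without a filter on low counts the same gene passed (edgeR, adjusted p = 0.0139), although the filter had not removed it. The value was 0.15 with dentate granule markers as a covariate, 0.21 without control 2 and 0.054 without both SIK3 guide females.

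Subiculum and deep cortex markers went with Col5a2 across the mice. The summed level of these 8 marker genes was 204, 216, 178 and 253 CPM in control mice 1 to 4 and 186, 200, 243 and 261 CPM in SIK3 guide mice 1 to 4. Of this sum, Fn1 alone had means of 91.8 CPM in controls and 97.2 CPM in SIK3 guide mice, and Tle4 63.2 and 64.5 CPM. Fn1 is also in the list of fibril-associated proteoglycans and glycoproteins given below. The mice with the highest Col5a2, SIK3 guide mice 4 and 3 and control 4, were also the highest for the markers, and control 3 and SIK3 guide mouse 1 were the lowest for both. With these markers as a covariate, an alternative chosen after seeing the data, the log2 fold change of Col5a2 was 0.33 and that of Col11a1 was 0.69. Of the 8 markers 7 were tested and 0 were called in edgeR, and all 8 had counts. Fewer cells of a type and less RNA per cell cannot be told apart in tissue RNA.

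Col5a1, whose product is the alpha 1 chain and makes up most of type V collagen, was low (chromosome 2, 27886425 to 28039514, plus strand). It was at 4.76, 6.18, 4.13 and 4.79 CPM in control mice 1 to 4 and at 3.63, 4.78, 5.45 and 7.87 CPM in SIK3 guide mice 1 to 4. The SIK3 guide group held both the lowest and the highest value. Its log2 fold change was 0.12 ± 0.17 (SE, 95% interval -0.26 to 0.49). The upper end was below the 0.66 of Col11a1 but inside the Col11a1 interval of 0.48 to 0.84. A difference of Col5a1 from Col11a1 was not tested. The sign was not stable, at -0.054 without SIK3 guide mouse 4, -0.083 without both SIK3 guide females and -0.018 when the GC slope was a covariate. It was 0.0036 without control 4, 0.18 without control 1, 0.21 without SIK3 guide mouse 1, 0.20 without mouse 3, 0.034 with meningeal and 0.028 with dentate markers as a covariate.

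Col5a3, which encodes the alpha 3 chain of type V, was at 3.55, 3.37, 2.73 and 2.36 CPM in control mice 1 to 4 (chromosome 9, 20770050 to 20815067, minus strand). In SIK3 guide mice 1 to 4 it was at 2.35, 4.28, 4.05 and 3.74 CPM. Here 3 SIK3 guide mice were above every control and mouse 1 was below them all. The log2 fold change was 0.26 ± 0.21 (SE, 95% interval -0.20 to 0.73) and did not pass (edgeR, adjusted p = 0.9999). It was 0.44 without SIK3 guide mouse 1, 0.13 without mouse 2, 0.13 without control 4 and 0.071 without both SIK3 guide females.

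Of the remaining chains, Col27a1 passed the filter, and Col2a1 and Col24a1 did not. Col27a1, a fibrillar chain of cartilage on chromosome 4 from 63214004 to 63334991 (plus strand), was at 6.53, 4.53, 3.91 and 3.33 CPM in control mice 1 to 4. In SIK3 guide mice 1 to 4 it was at 5.51, 5.56, 5.29 and 6.51 CPM. Control 1 was the highest of all 8 mice, and the other 3 controls were below all SIK3 guide mice. The log2 fold change was 0.34 ± 0.19 (SE, 95% interval -0.077 to 0.75), which did not pass (edgeR, adjusted p = 0.9999). It was 0.54 without control 1, 0.21 without control 4, 0.22 without SIK3 guide mouse 4 and 0.082 without both SIK3 guide females, with no call in these fits.

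Col2a1, the main collagen of cartilage (chromosome 15, 97975602 to 98004695, minus strand), had 5 to 17 counts per mouse. Col24a1, a fibrillar chain known from developing bone (chromosome 3, 145292472 to 145552011, plus strand), had 3 to 17. Both were too low for the filter and were not tested. Col2a1 was at 0.30 to 0.59 CPM in controls and 0.36 to 0.92 CPM in SIK3 guide mice, and Col24a1 at 0.21 to 0.79 CPM and 0.21 to 0.96 CPM, so the groups overlapped for both.

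Across the family, 5 of the 7 chains other than Col11a1 were tested and 0 were called in edgeR, against 0.0135% of all genes. DESeq2 and limma voom also called 0 of the 5, and 1, Col5a2, had an unadjusted p under 0.05, against 2.81% of all genes (1.79% higher and 1.03% lower). All 5 had positive log2 fold changes, from 0.12 to 0.40 with a median of 0.32, while 51.5% of all genes were positive and the median of all genes was 0.0036. At least 0.2 was reached by 4 of the 5, against 9.58% of all genes. With the filter the rise of Col11a1 was thus not shown for any other chain. For Col11a2, Col5a2, Col5a3 and Col27a1 the intervals do not exclude 0.66, a value that may be too high because it chose Col11a1. The Col5a1 interval ended below 0.66 but overlapped the Col11a1 interval of 0.48 to 0.84. The 5 had a GC content of 49.6% to 62.9% in their longest transcript, all above the median of 49.4% over all tested genes, and Col11a1 had 48.0%.

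**Figure D2:**
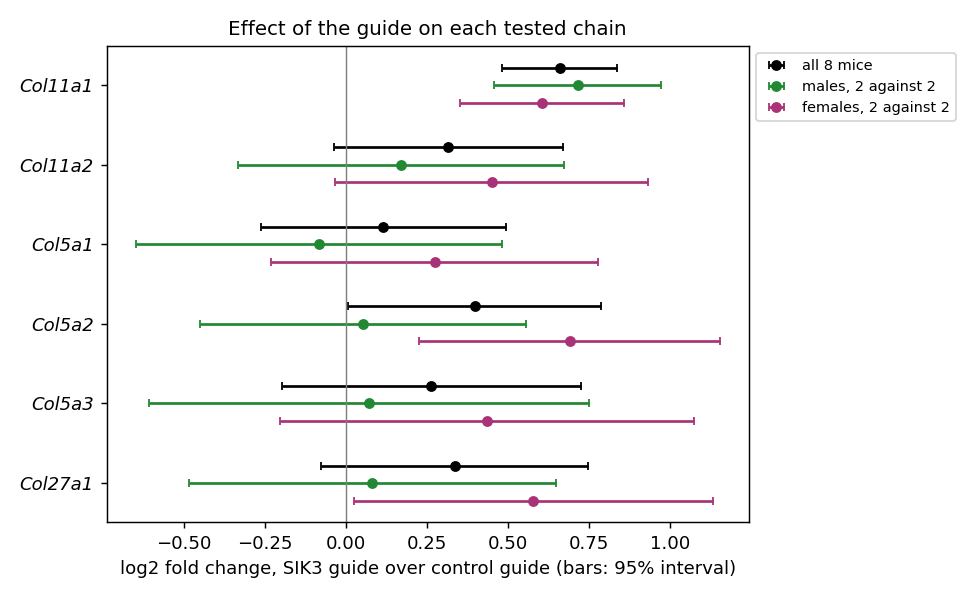
Log2 fold change of each tested chain, SIK3 guide over control guide, with 95% intervals from edgeR, for all 8 mice (black), for 2 against 2 males (green) and for 2 against 2 females (purple). Col11a1, chosen by its call over both sexes, has similar values in all 3 fits (0.66, 0.72 and 0.61). The other 5 chains lie between -0.083 and 0.17 in males and between 0.27 and 0.69 in females.

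The sexes were compared next. The log2 fold change of Col11a1 was 0.72 for males and 0.61 for females; females minus males gave -0.11 ± 0.165 (SE, 95% interval -0.47 to 0.25; edgeR interaction, adjusted p = 0.869). Col11a1 was chosen by its call over both sexes, which favours genes with similar values in males and females. The other 5 chains had values near 0 in males: 0.17 for Col11a2, -0.083 for Col5a1, 0.053 for Col5a2, 0.071 for Col5a3 and 0.082 for Col27a1. In females they were 0.45, 0.27, 0.69, 0.44 and 0.58. A log2 fold change of at least 0.2 was reached by 21.2% of all genes in females and by 9.3% in males. Tested within a sex in edgeR, 0 of these 5 were called in males (0% of all genes) and 0 in females (0.0406%). At an unadjusted p under 0.05 were 0 of the 5 in males (1.83% of all genes) and 2, Col5a2 and Col27a1, in females (7.11%). Col5a2 had the widest difference between the sexes, 0.64 ± 0.31 (SE, 95% interval -0.046 to 1.32; edgeR, adjusted p = 0.765). The interaction called 0 of the 6 chains in edgeR, DESeq2 and limma voom, with 0 of the 6 at an unadjusted p under 0.05, against 0% called and 5.42% at that p among all genes. The difference was above 0 in 5 of the 6 chains, against 51.9% of all genes. A different effect in the sexes was therefore not shown, and each sex had 2 mice per guide.

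The GC slope of the libraries lay beside this pattern. Both control females had lower slopes than both SIK3 guide females, so slope and guide cannot be told apart in females. The part of the slope in the collagen values was not tested. Col11a2, Col5a1, Col5a3 and Col27a1, with 58.0% to 62.9% GC, summed to 34.7, 31.8, 22.4 and 23.0 CPM in control mice 1 to 4 and to 28.2, 33.4, 33.4 and 40.9 CPM in SIK3 guide mice 1 to 4. SIK3 guide mouse 4 and control 1 had both the highest sums and the most positive slopes, 0.16 and 0.14, and the 3 libraries with slopes under -0.09 had the lowest sums. With the slope as a covariate, an alternative chosen after seeing the data, log2 fold changes were 0.21 for Col11a2, 0.26 for Col5a2, 0.13 for Col5a3 and 0.24 for Col27a1, while Col11a1 was at 0.70. In that fit the interaction was -0.25 for Col11a2, -0.097 for Col5a1 and -0.15 for Col5a3, opposite in sign to the fit without it, and it was 0.23 for Col5a2 and 0.059 for Col27a1.

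**Figure D3:**
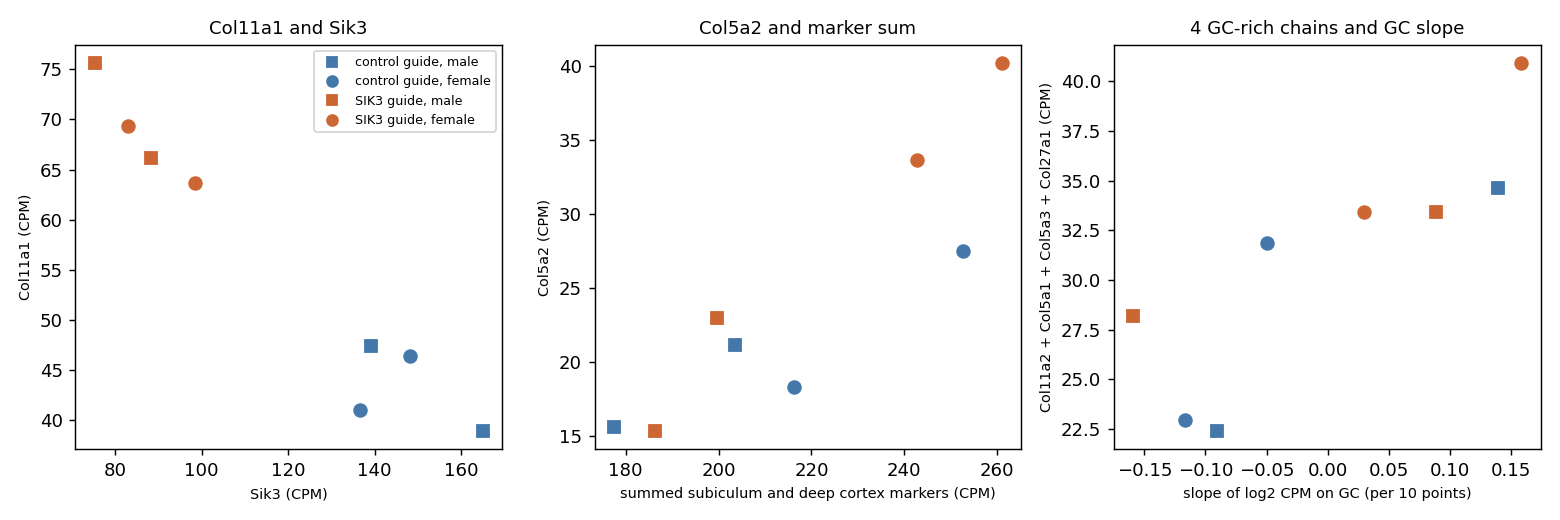
Per-mouse values, with colours and shapes as in the plot of CPM by mouse: Col11a1 against Sik3 (left), Col5a2 against the summed subiculum and deep cortex markers (middle), and the sum of Col11a2, Col5a1, Col5a3 and Col27a1 against the GC slope of the library (right); axes do not start at 0. SIK3 guide mouse 4 is highest in the middle and right panels, at 40.2 and 40.9 CPM.

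Sex itself was tested in the same fit, a contrast that chose none of the chains. Col5a2 was at 18.8 ± 3.87 CPM in males and 29.9 ± 9.31 CPM in females (SD, n = 4 each), a log2 difference of 0.64 ± 0.18 (SE; edgeR, adjusted p = 0.629). Col5a1 was at 4.32 ± 0.55 CPM in males and 6.07 ± 1.33 CPM in females (SD, n = 4 each), a difference of 0.49 ± 0.17 (SE; edgeR, adjusted p = 0.762). Col11a1 differed by -0.039 ± 0.081 (SE, 95% interval -0.22 to 0.14; edgeR, adjusted p = 0.986). Of the 6 chains 0 were called, against 0.0609% of all genes, and 2 had an unadjusted p under 0.05, against 6.05%. Both were higher in females, as were 3.25% of all genes at that p. Col5a2 passed for sex with the GC slope as a covariate (0.63; edgeR, adjusted p = 0.0419) and without a filter. With the subiculum and deep cortex markers as a covariate it had the opposite sign, -0.13.

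Levels of different genes were compared as RPKM, which divides CPM by the exon length of the gene in kilobases. Over all 8 mice Col11a1 was the most abundant chain, at 4.40 ± 1.11 RPKM (SD, n = 8), close to the middle of all tested genes (percentile 49.9), with 3.41 ± 0.32 RPKM in controls and 5.39 ± 0.41 RPKM in SIK3 guide mice (SD, n = 4 each). Col5a2 followed at 2.54 ± 0.93 and Col11a2 at 2.52 ± 0.54 RPKM (SD, n = 8 each), and the ranges of these 3 genes overlapped. In controls alone Col11a2 was above Col5a2 (2.24 and 2.15 RPKM), and in SIK3 guide mice below it (2.80 and 2.92 RPKM). Col11a2 and Col5a1 had no overlap: Col5a1 was at 0.61 ± 0.16, Col5a3 at 0.49 ± 0.11 and Col27a1 at 0.40 ± 0.089 RPKM (SD, n = 8 each), with overlapping ranges. Col24a1, at 0.067 RPKM, and Col2a1, at 0.055 RPKM, were lowest and overlapped each other. Col2a1, which gives the third chain of cartilage type XI, thus had little mRNA in this tissue; protein was not measured.

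**Figure D4:**
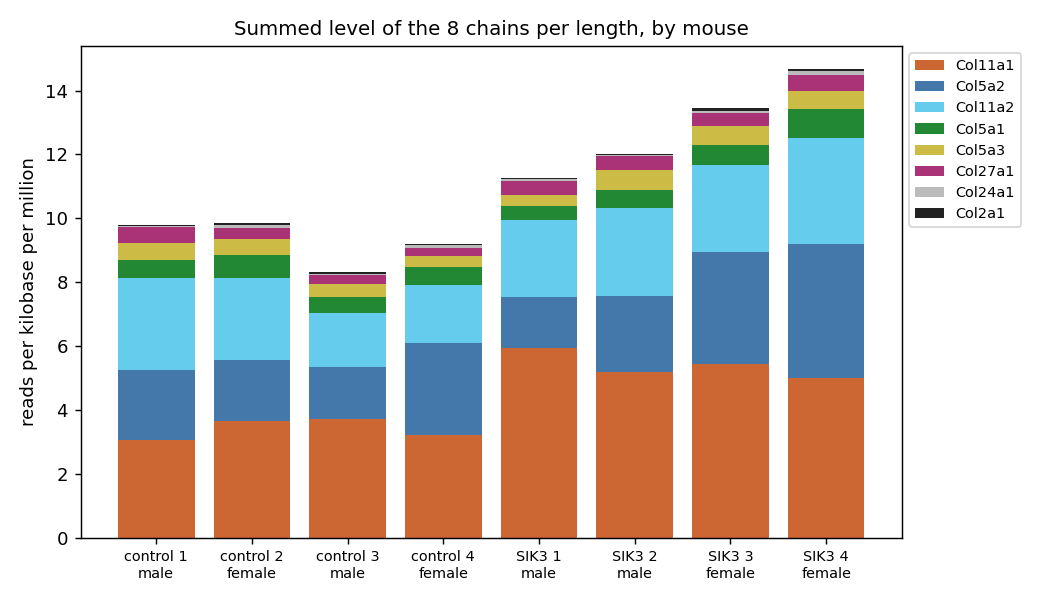
Summed level of the 8 chains in RPKM for each mouse, stacked by chain. The SIK3 guide mice reach 11.3 to 14.7 RPKM and the controls 8.33 to 9.85 RPKM, and in SIK3 guide mouse 1 Col11a1 is 52.7% of the bar.

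The summed level of the 8 chains was 9.30 ± 0.71 RPKM in controls and 12.9 ± 1.52 RPKM in SIK3 guide mice (SD, n = 4 each). Without Col11a1 the sums were 5.89 ± 0.91 and 7.46 ± 1.84 RPKM (SD, n = 4 each), and the groups overlapped, with SIK3 guide mouse 1 at 5.33 and mouse 4 at 9.67 RPKM. Col11a1 made up 31.2%, 37.0%, 44.7% and 34.9% of the family in control mice 1 to 4. It made up 52.7%, 43.2%, 40.4% and 34.1% in SIK3 guide mice 1 to 4. These shares overlapped, so the balance between Col11a1 and the other chains did not separate the groups even though the level of Col11a1 did. The difference of 5.65 percentage points between the group means ranged from 2.30 to 8.49 when 1 mouse was left out.

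Within the groups the other chains did not follow Col11a1. After removing the means of guide and sex, log2 CPM over the 8 mice had a Pearson r with Col11a1 of -0.90 for Col5a2, -0.53 for Col11a2, -0.52 for Col27a1, -0.48 for Col5a1 and -0.45 for Col5a3 (Spearman rho -0.95, -0.60, -0.50, -0.74 and -0.57). These values are descriptions over 8 libraries that differ in GC slope and in marker sums, and all genes of a mouse come from the same library. By the same measure the genes most like Col11a1, of 13871 compared, were the neuropeptide Y receptor gene Npy2r (r = 0.996), the phosphodiesterase gene Pde3b (0.988), Lysmd3 (0.987), Luzp2 (0.983) and the nesfatin precursor gene Nucb2 (0.982). With 8 mice, 170 genes reached 0.9, while strongly negative values such as that of Col5a2 were not counted over all genes. None of these 5 rose with the guide: Npy2r was at 119 CPM in both groups, and the 5 log2 fold changes ran from -0.21 to 0.0056 (edgeR, adjusted p = 0.9999 for each).

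The abundant fibrillar collagens, types I and III, were low in CA1. Col1a1 was at 1.96 ± 0.64 and 1.94 ± 0.35 CPM, Col3a1 at 1.75 ± 0.72 and 1.79 ± 1.10 CPM, and Col1a2 at 4.07 ± 0.70 and 5.46 ± 1.24 CPM, in control and SIK3 guide mice (SD, n = 4 each). Their log2 fold changes were 0.017, 0.019 and 0.43, and 0 of 3 passed. Meningeal fibroblast markers, genes of the membranes around the brain, summed to 92.8 to 119 CPM in controls and 94.8 to 127 CPM in SIK3 guide mice. Of this sum, Apod alone had means of 48.1 CPM in controls and 50.3 CPM in SIK3 guide mice. Ogn, Dcn, Lum and Fmod are also in the list of fibril-associated proteoglycans and glycoproteins given below. All 15 meningeal markers had counts, 14 were tested and 0 were called. SIK3 guide mouse 1 was highest at 127 CPM, mouse 4 was at 124 CPM, and control 1 at 119 CPM. With these markers as a covariate log2 fold changes were 0.66 for Col11a1, which was not called in that fit, 0.24 for Col11a2, 0.034 for Col5a1, 0.39 for Col5a2, 0.31 for Col5a3 and 0.23 for Col27a1.

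Other collagens and their partners were read from 13 lists, in which 0 of 121 tested genes were called in edgeR, DESeq2 or limma voom. At an unadjusted p under 0.05 were 7, all higher, as were 1.79% of all genes (2.81% in both directions). Of 29 tested collagen chains outside the 8, 23 had positive log2 fold changes (79.3%, against 51.5% of all genes), the median was 0.22, and 6 had an unadjusted p under 0.05, all higher, against 1.79% of all genes. In males the median was 0.0073 with 17 of 29 positive, and in females it was 0.47 with 24 of 29 positive. Among all genes 48.6% were positive in males and 51.2% in females. At least 0.2 was reached by 5 of 29 in males and 20 of 29 in females, against 9.3% and 21.2% of all genes. The median of 0.22 in both sexes became 0.15 without SIK3 guide mouse 4, 0.34 without control 1 and 0.11 without control 4. It was 0.11 when the GC slope was a covariate, 0.10 with meningeal markers as a covariate and 0.0073 without both SIK3 guide females. Of the 29, 25 had a GC content above the median of all tested genes. The median was larger in females than in males, as for the 5 other fibrillar chains. Col11a1 had similar values in both sexes, which its choice by a call over both sexes favours. No difference between the sexes was shown for the 6 tested family chains. Gene by gene, the edgeR interaction called 0 of all tested genes, these 29 included. A difference for the list as a whole was not tested.

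Fibril-associated (FACIT) collagens, which sit on fibrils, had 8 of 8 tested members positive and a median of 0.23, with Col19a1 at 0.020 ± 0.070, Col20a1 at 0.22 ± 0.14 and Col9a3 at 0.21 ± 0.18 (SE). Network and basement membrane collagens had 6 of 9 positive and a median of 0.24, which was 0.037 with meningeal markers as a covariate and 0.0040 without both SIK3 guide females. In that list the vessel wall chains Col4a2 and Col4a1 were at 0.24 ± 0.13 and 0.33 ± 0.115 (SE), and Col4a5 at 0.087. Col4a1 had an adjusted p of 0.0130 without a filter (edgeR). The beaded filament list had a median of 0.30, with Col6a1 at 0.37 ± 0.15, Col6a4 at 0.52 ± 0.53 and Col6a3 at 0.20 ± 0.24 (SE). The transmembrane collagens Col25a1, a neuronal chain, and Col23a1 were at -0.026 and 0.025.

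Genes that make, export and cross-link collagen had medians from 0.0034 to 0.13. Of 18 tested genes of modification and folding, 10 were positive with a median of 0.047; Sparc, P4hb and the prolyl hydroxylase subunit gene P4ha1 were at -0.021, -0.079 and -0.12. Export and propeptide cleavage had 8 of 15 positive and a median of 0.0034, with the export receptor gene Mia3 at 0.060, the coat protein gene Sec23a at 0.0034 and the procollagen protease gene Bmp1 at 0.12. Of the cross-linking enzymes, Tgm2 was at 0.13, Loxl3 at -0.091 and Loxl2 at 0.13. Each of these lists had 0 called genes.

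Matrix partners, receptors and signalling genes also had 0 called genes. Fibril-associated proteoglycans and glycoproteins had 12 of 14 positive and a median of 0.12, with fibronectin (Fn1, also among the subiculum markers) at 0.082, Thbs4 at 0.086 and Prelp at 0.15. Collagen receptors had 5 of 10 positive and a median of 0.0025, with the integrin gene Itgb1 at -0.036, Adgrg1 at -0.0048 and Ddr1 at 0.12. Proteases and inhibitors had 3 of 9 positive and a median of -0.034, with Timp2 at -0.029, Timp3 at -0.034 and Mmp16 at -0.051. Cartilage matrix genes and chondrocyte factors had 7 of 10 positive and a median of 0.040, with Mef2c at -0.046, Hapln1 at -0.036 and Sox9, a factor that drives cartilage collagens, at 0.14. TGF-beta and SMAD genes had 9 of 13 positive and a median of 0.026, with Smad3 at 0.020, Smad4 at -0.076 and Tgfb2 at -0.045.

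**Figure D5:**
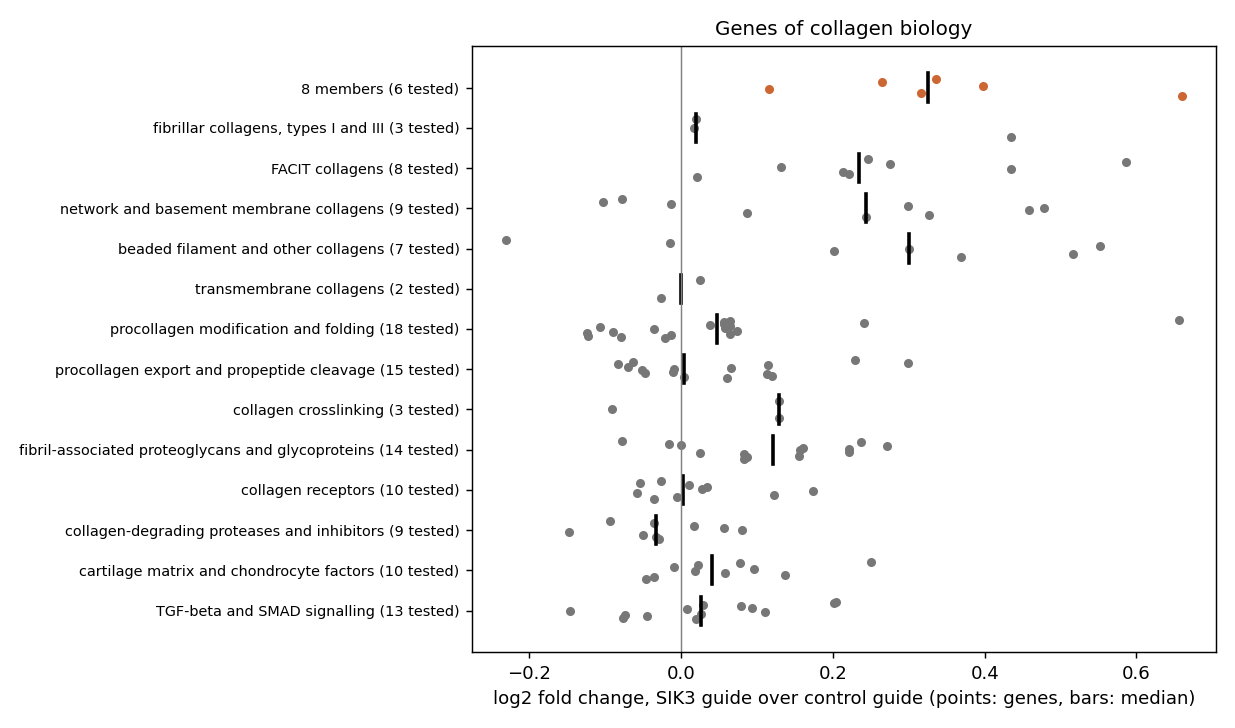
Log2 fold change of each tested gene, SIK3 guide over control guide, in the fibrillar collagen family (orange) and in the 13 lists of collagen biology (grey), with the median of each list as a black bar. Col11a1 at 0.66 is the rightmost orange point, and the collagen chain lists other than the transmembrane list and types I and III have medians from 0.23 to 0.30.

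Markers of the cells that CA1 tissue can hold were checked as 14 lists, in which 0 genes were called in edgeR. CA1 pyramidal markers, which include Wfs1 and Fibcd1, summed to 319 to 402 CPM in controls and 351 to 391 CPM in SIK3 guide mice. Dentate granule markers summed to 1323 to 1488 and 1189 to 1448 CPM, and 1 of the 10 had a positive log2 fold change (median -0.10). Oligodendrocyte markers ran from 3187 to 5294 CPM and from 2903 to 4583 CPM, and 0 of the 11 had a positive log2 fold change. CA2 and CA3 pyramidal markers summed to 387 to 415 CPM and 413 to 436 CPM, and endothelial markers to 266.5 to 277 CPM and 275 to 291 CPM. Pericyte and smooth muscle markers, of cells that lay down vascular collagen, ran from 248 to 263 CPM and from 253 to 308 CPM, with SIK3 guide mouse 1 highest. Of these 9 markers, 8 had positive log2 fold changes (median 0.10), against 51.5% of all genes. At an unadjusted p under 0.05 were 3 of 10 CA2 and CA3 markers (Rgs14, Necab2 and Cdh24) and 2 of 9 endothelial markers (Kdr and Cdh5). So were 1 of 9 pericyte markers (Vtn) and 1 of 10 microglia markers (Cx3cr1). All of these were higher, as were 1.79% of all genes at that p (2.81% in both directions). Apart from the subiculum, meningeal and dentate lists used as covariates, the part of these markers in the collagen results was not tested.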

How the data were processed

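CA1 tissue of 8 Cas9 mice was profiled by RNA sequencing with a stranded mRNA kit, per the labels. For each mouse the authors deposited 1 file of raw counts over 37315 Ensembl identifiers, and 0 of its rows are without a gene. The submitters' processing notes list the genome mm10 and the tools HTSeq 2.0.1, Trimmomatic 0.33 and TopHat2 2.1.1, without saying what each did. Strand setting and annotation release: not given in the sources used here. An 8-column table of the whole series went unused. Symbols matched 35449 identifiers; positions and exon lengths are those of GENCODE M21 (GRCm38). Col5a1 shares 99 and 113 exon bases with 2 opposite-strand genes that had 3 and 4 counts in total.

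Tests used edgeR 4.0.16 under R 4.3.3: TMM scaling, filterByExpr (minimum count 10, minimum total 15), a quasi-likelihood F test with sex as covariate and 5 residual degrees of freedom, and a Benjamini-Hochberg adjusted p under 0.05 over 14788 genes. The procedure was tested on simulated data. Each SE was derived from the log2 fold change and its F value. The intervals used the total degrees of freedom of edgeR, which add prior to residual ones. Each 95% interval is for 1 gene and is not adjusted. CPM and RPKM were calculated here from TMM library sizes and merged exon length; a prior count of 2 entered log2 CPM. Nothing in the labels says how the mice relate within a group, so p-values measure the spread between these mice. The 8 chains and all lists were chosen with earlier results of these data known. From each collagen list the 3 genes with the highest RPKM were named, and 5 genes for likeness to Col11a1 (mean CPM of at least 1). P4ha3, Col26a1, Col28a1, Col4a3 and the named cell markers with an unadjusted p under 0.05 were singled out once their values had been seen. Alternatives covered scaling, filters, DESeq2 1.42.0, limma 3.58.1 voom, the sex term, marker covariates and each mouse left out; the subiculum and GC slope covariates and the fit without both SIK3 guide females were chosen after seeing the data.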

Additional observations from a re-analysis of the deposited data

How the results depend on the processing

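The count of 0 called chains among the 5 tested besides Col11a1 was 1 (Col5a2) without a filter on low counts and 0 in the other 19 alternatives, and the count of list genes called was 1 (Col4a1) without a filter. Over all genes 2 were called; the count was 84 without a filter, 0 with meningeal markers as a covariate or without both SIK3 guide females, and 0 to 2 with 1 mouse left out. The interaction called 0 chains in all 18 alternatives. For sex, 1 chain, Col5a2, was called without a filter and in the GC slope fit, and 0 in the other 16. The refits use the mice that chose Col11a1, so its call in them is a description and no test. Of the 20 alternatives, 13 kept the call of Col11a1, whose log2 fold change ran from 0.59 to 0.77. Its mean level was 7.31 RPKM on the longest transcript, and 4.18 to 4.59 RPKM with 1 mouse left out; its share difference was 2.30 to 8.49 points.

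Signs that turned belong to effects that were not called in either fit. For Col5a1 the guide effect was -0.018 with the GC slope, -0.054 without SIK3 guide mouse 4 and -0.083 without both SIK3 guide females. For the interaction, the GC slope gave 0.086 for Col11a1, -0.25 for Col11a2, -0.097 for Col5a1 and -0.15 for Col5a3; subiculum markers gave 0.0091 for Col11a1; leaving out control 1 gave 0.031 for Col11a1 and -0.15 for Col11a2, and leaving out SIK3 guide mouse 1 gave -0.0091 for Col5a3. For sex, Col11a1 was at 0.064 with dentate markers, 0.26 with subiculum markers, 0.013 without control 3, 0.014 without SIK3 guide mouse 1 and 0.0018 without mouse 4. Subiculum markers gave -0.14 for Col11a2 and -0.13 for Col5a2, leaving out control 3 gave -0.010 for Col11a2, leaving out control 1 gave 0.062 for Col27a1, and leaving out SIK3 guide mouse 1 gave -0.13 for Col5a3. With 1 mouse left out, guide effects of Col5a1 spanned -0.054 to 0.21, interactions -0.28 to 0.031 (Col11a1), -0.15 to 0.59 (Col11a2) and -0.0091 to 0.84 (Col5a3), and sex effects -0.10 to 0.014 (Col11a1), -0.010 to 0.28 (Col11a2), -0.13 to 0.21 (Col5a3) and -0.25 to 0.062 (Col27a1). The cause was not tested. No paired analysis was possible because the labels give no replicate numbers. Depth limits Col2a1 and Col24a1, which had at most 17 counts per mouse.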

Other observations

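Within the 4 SIK3 guide mice, Col11a1 and Sik3 stood in opposite order. Sik3 was at 75.3, 82.9, 88.3 and 98.5 CPM in SIK3 guide mice 1, 3, 2 and 4, and Col11a1 in the same mice was at 75.6, 69.3, 66.2 and 63.7 CPM. In controls 4, 3, 2 and 1, with Sik3 at 137, 139, 148 and 165 CPM, Col11a1 was at 41.0, 47.5, 46.4 and 38.9 CPM, without such an order. The GC slope of the library put the SIK3 guide mice in the same order, at -0.16, 0.029, 0.089 and 0.16 in mice 1, 3, 2 and 4. It also ordered the controls as Sik3 did, at -0.12, -0.091, -0.050 and 0.14 in controls 4, 3, 2 and 1, and its part in these orders was not tested. The relation was noticed after the values were seen, and 4 mice are too few for a correlation.

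A pair of low-count genes is given here, picked from the lists because their values were high in SIK3 guide mice; other low-count collagen genes were lower there, such as Col28a1 at a log2 fold change of -0.23 and Col4a3 at -0.10. P4ha3, which encodes a catalytic subunit of the enzyme that hydroxylates procollagen prolines, was at 1.14, 1.16, 0.74 and 1.46 CPM in control mice 1 to 4 and at 1.82, 1.78, 1.56 and 1.98 CPM in SIK3 guide mice 1 to 4. The groups did not overlap, as for 1.74% of all genes (0.933% higher), the log2 fold change was 0.66 ± 0.23 (SE), and it did not pass (edgeR, adjusted p = 0.9999). It rested on 10 to 35 counts per mouse. The collagen chain gene Col26a1 was at 1.21, 1.21, 1.11 and 1.76 CPM in control mice 1 to 4 and at 1.68, 2.00, 2.104 and 1.98 CPM in SIK3 guide mice 1 to 4, with overlap at control 4. Its log2 fold change was 0.55 ± 0.21 (SE), 0.66 in males and 0.46 in females.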
